A study of Callithrix jacchus with 3 samples.

Results

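The Krüppel-like factors (KLF proteins) are transcription factors that end in a cluster of C2H2 zinc fingers and bind GC-rich and CACCC-type DNA. The 10 KLF genes considered were KLF2, KLF3, KLF4, KLF5, KLF6, KLF9, KLF10, KLF12, KLF13 and KLF17, and each was taken as the row of the count files whose Ensembl marmoset gene ID maps to that symbol. A row was found for 7 of the 10, among 30811 genes listed. KLF2, KLF3 and KLF9 had no matched row, so they were dropped and are not analysed here, and nothing about their expression follows. RNA sequencing covered 3 libraries (replicates 1 to 3) of common marmoset (Callithrix jacchus) cells labelled extended pluripotent stem cell, which the design text calls EPSC-like and the title ties to attempts to derive such cells from embryonic stem cells. All libraries belong to this 1 group, no treatment or control is named, and the titles differ only in the replicate number, so 1 line may underlie them all. Since no label states separate cultures, p-values over the libraries reflect nothing beyond the spread among them, and that spread may be technical.

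KLF proteins share the zinc fingers and differ in the part that recruits cofactors. Members such as KLF4, KLF5 and KLF6 bind acetyltransferases and mostly activate genes, members such as KLF3, KLF8 and KLF12 bind the corepressor CtBP, and members such as KLF9, KLF10 and KLF13 bind the corepressor SIN3. In mouse embryonic stem cells KLF2, KLF4 and KLF5 help to maintain the naive state of pluripotency, and in human cells KLF17 marks the naive epiblast. Several KLF genes, among them KLF4, KLF6 and KLF10, also respond early to growth factors and stress.

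Library totals lay between 40593244 counts in replicate 3 and 55224475 counts in replicate 2. Levels are given in counts per 1000000 counts (CPM) after TMM scaling, and 3 counts, taken as the limit that 0 counts allow, came to 0.0573, 0.0546 and 0.0736 CPM in replicates 1, 2 and 3. Intervals and limits cover counting error alone. Replicate 3 stood apart from the others. Over the 13719 genes whose mean reached 1 CPM, log2 ratios had an SD of 0.16 for replicate 2 over 1, 0.55 for replicate 3 over 1 and 0.56 for replicate 3 over 2. The pluripotency markers were expressed, with 9 of 9 matched genes above 1 CPM and a summed level of 6959 to 7431 CPM, though SALL4, LIN28A and LIN28B were lower in replicate 3. Markers of other cell types were also found. In replicates 1, 2 and 3 the summed level was 57.4, 59.0 and 36.9 CPM for 5 matched trophectoderm markers, 20.3, 21.0 and 10.3 CPM for 7 endoderm markers, and 677, 635 and 475 CPM for 6 fibroblast markers. The trophectoderm regulator CDX2 had 0 counts in replicate 3, and the endoderm marker AFP had none in any library. Of the 5 mesoderm markers, 3 were above 1 CPM, and the list summed to 14.3, 11.8 and 12.3 CPM. Of the blood, epidermis and neuroectoderm markers, 1 matched gene each was above 1 CPM. Of the 7 endothelium markers, 4 were above it and the list summed to 149, 155 and 99.6 CPM, of which PECAM1 and KDR gave most, while CDH5 and ERG had at most 5 counts in a library.

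Of the 7 KLF genes with a row, 6 were expressed above 1 CPM, namely KLF4, KLF5, KLF6, KLF10, KLF12 and KLF13, and the level of KLF17 was not distinguished from 1 CPM. The call was made at an adjusted p under 0.05 by the edgeR quasi-likelihood F statistic over all 23432 genes with a count. None of the 7 was below the level. Of all genes tested 56% were above and 37.8% below, and of the 12174 with a symbol, the fairer background since the rule needs a symbol, 78.3% were above and 16.1% below. The 6 of 7 therefore says little about the family as such. The median level of the 7 genes was 4.74 on the log2 CPM scale, against 4.12 for all tested genes with a symbol. CPM is not divided by transcript length, and lengths of the annotation counted were not used here, so the genes are not ranked by level.

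**Figure D1:**
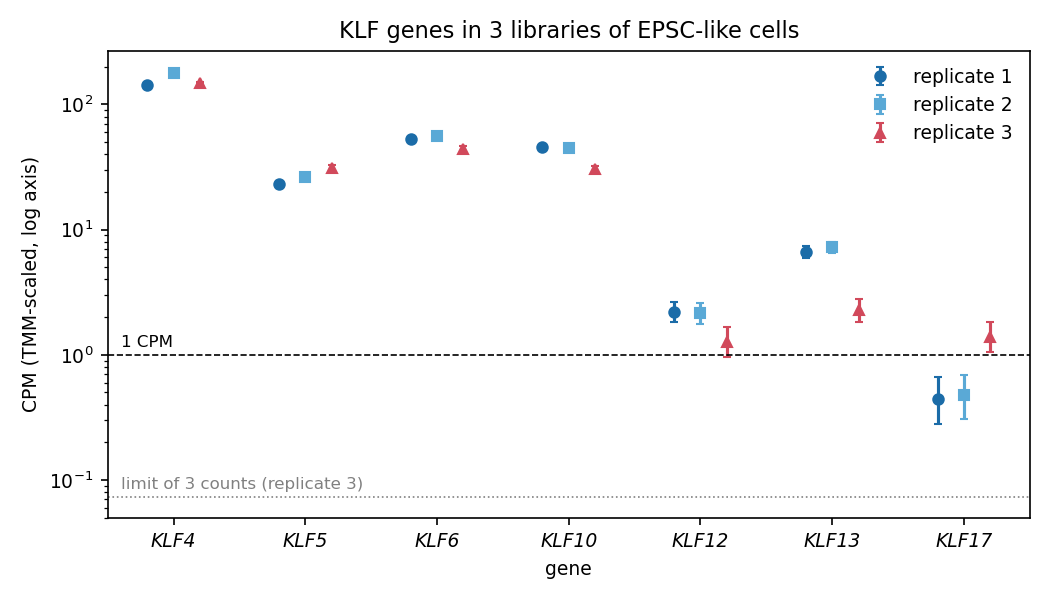
Level of each of the 7 KLF genes in CPM (log axis) in replicates 1, 2 and 3, with exact 95% Poisson intervals as bars, the tested level of 1 CPM dashed and the limit of 3 counts in replicate 3 dotted. KLF12 and KLF13 are lowest and KLF17 highest in replicate 3. Heights of different genes are not comparable, as CPM does not correct for length.

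KLF4, a core reprogramming factor beside OCT4, SOX2 and MYC, is known in stem cells as a target of LIF and STAT3 signalling. It had 7433, 9804 and 6048 counts, or 142, 178 and 148 CPM, in replicates 1, 2 and 3. Replicate 2 was the high one, and replicates 1 and 3 lay close together. The mean was 156 ± 19.4 CPM (SD, n = 3), and the log2 level of 7.29 ± 0.09 (SE) was above that of 1 CPM (edgeR quasi-likelihood, adjusted p = 4.18e-13).

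Replicates 1 and 2 were close for most genes but less so for KLF4. Between them, KLF4 was 1.25-fold higher in replicate 2 (95% interval 1.22 to 1.29, exact conditional binomial test, adjusted p = 5.55e-46, a test of these libraries and not of conditions). The size of that ratio was at percentile 94.2 of the 13719 genes whose mean reached 1 CPM. KLF5 was also higher in replicate 2, by 1.14-fold (interval 1.06 to 1.23, exact binomial adjusted p = 0.0177). Of all genes tested, 3.72% were higher in replicate 2 than in replicate 1 by this test with no minimum fold, against these 2 of 7. That share includes genes with few counts, which the test rarely calls. With all counts divided by 2, in case each fragment was entered as 2 reads, the KLF4 difference still passed (exact binomial adjusted p = 2.37e-22) and that of KLF5 did not (0.392). Under the stricter rule, which adds a minimum of 1.5-fold, 0 of 7 differed between these libraries, against 1.07% of all genes.

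KLF5, a factor of the inner cell mass and of the trophectoderm, had 1202, 1442 and 1264 counts, which is 23.0, 26.2 and 31.0 CPM in replicates 1, 2 and 3. The highest level was in replicate 3 and the lowest in replicate 1. Its mean was 26.7 ± 4.04 CPM (SD, n = 3), above 1 CPM (edgeR quasi-likelihood, adjusted p = 1.67e-10). Replicate 3 exceeded replicate 1 by 1.35-fold (interval 1.25 to 1.46) and replicate 2 by 1.18-fold (1.10 to 1.28), both under the 1.5-fold required of a call. KLF4 and KLF5 thus did not share one pattern, and their ratio of counts was 6.18, 6.80 and 4.78 in replicates 1, 2 and 3. The exact intervals of that ratio, 5.82 to 6.58, 6.43 to 7.19 and 4.50 to 5.09, separate replicate 3 from the others.

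KLF6, a widely expressed member that responds to injury and growth signals, had 2756, 3088 and 1799 counts. These came to 52.7, 56.2 and 44.1 CPM, a mean of 51.0 ± 6.20 (SD, n = 3), above 1 CPM (edgeR quasi-likelihood, adjusted p = 1.04e-11). Replicate 3 was the lowest, 1.19-fold under replicate 1 and 1.27-fold under replicate 2. The range of 0.35 log2 units was close to the median of 0.35 over all genes whose mean reached 1 CPM. KLF6 thus varied about as much as a gene at the middle of that group.

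KLF17 is the member most tied to the naive human epiblast, and it is also known from germ cells. It had 23, 26 and 57 counts in replicates 1, 2 and 3, or 0.44, 0.47 and 1.40 CPM. The exact 95% Poisson intervals were 0.28 to 0.66, 0.31 to 0.69 and 1.06 to 1.81 CPM, so the counting intervals of replicate 3 and of the others did not overlap. Replicates 1 and 2 were thus under 1 CPM and replicate 3 over it.

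The log2 level of KLF17 was −0.39 ± 0.37 (SE) with all libraries (edgeR quasi-likelihood, adjusted p = 0.344). Without replicate 3 it was −1.13 and below 1 CPM (adjusted p = 0.000287, in a fit on 2 libraries that takes the spread from the trend over genes). Replicate 3 was 3.18-fold above replicate 1 (interval 1.93 to 5.41, exact binomial adjusted p = 4.68e-06) and 2.96-fold above replicate 2 (1.83 to 4.90, adjusted p = 1.01e-05). This was 1 of 7 KLF genes higher in replicate 3 than in both others by at least 1.5-fold, against 4.12% of all genes tested.

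KLF10, also called TIEG1, is an early target of TGF-beta signalling and represses through SIN3. It had 2382, 2474 and 1252 counts, and levels of 45.5, 45.0 and 30.7 CPM in replicates 1, 2 and 3. Replicates 1 and 2 were alike, and replicate 3 was lower by 1.48-fold (interval 1.38 to 1.59) and 1.47-fold (1.37 to 1.57), just short of 1.5-fold. The mean was 40.4 ± 8.41 CPM (SD, n = 3), above 1 CPM (edgeR quasi-likelihood, adjusted p = 1.06e-10).

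KLF13, another SIN3-binding member with known roles in blood cells and the heart, had the widest range among the KLF genes whose mean reached 1 CPM. It had 346, 397 and 93 counts, or 6.61, 7.22 and 2.28 CPM. Replicate 3 was lower than replicate 1 by 2.90-fold (interval 2.30 to 3.69, exact binomial adjusted p = 3.92e-22) and than replicate 2 by 3.17-fold (2.52 to 4.01, adjusted p = 2.41e-27). Its range of 1.66 log2 units stood at percentile 98.4 of all genes at that mean or higher. The mean of 5.37 ± 2.69 CPM (SD, n = 3) was above 1 CPM (edgeR quasi-likelihood, adjusted p = 3.88e-05).

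KLF12 binds CtBP and was described as a repressor of TFAP2A. Its 115, 118 and 52 counts gave 2.20, 2.15 and 1.28 CPM in replicates 1, 2 and 3. The mean of 1.87 ± 0.52 CPM (SD, n = 3) was above 1 CPM (edgeR quasi-likelihood, adjusted p = 0.00342). Replicate 3 was the low library, 1.72-fold under replicate 1 (interval 1.23 to 2.44, exact binomial adjusted p = 0.00296) and 1.68-fold under replicate 2 (1.20 to 2.38, adjusted p = 0.00454). Both calls were lost with halved counts (adjusted p = 0.0594 and 0.0796 by the exact binomial test). TFAP2A stood at 12.3, 12.1 and 2.45 CPM and was also lower in replicate 3 than in both others.

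KLF12 and KLF13 were thus the 2 of 7 that were lower in replicate 3 than in both other libraries by at least 1.5-fold. The same held for 8.32% of all genes tested and for 12.7% of those whose mean reached 1 CPM. With no minimum fold, all 7 differed in replicate 3 from replicate 1 and from replicate 2. So did 45.9% and 46.3% of all genes, which include genes with few counts that the test rarely calls. The share over genes whose mean reached 1 CPM was not computed. The KLF4 difference from replicate 1 was lost with halved counts (exact binomial adjusted p = 0.138). Beside KLF12 and KLF13, 3 of 5 trophectoderm markers, 3 of 7 endoderm markers and 2 of 6 fibroblast markers were lower in replicate 3 than in both others. The endoderm list includes AFP, which had no counts and could not be called. Of the pluripotency markers, 3 of 9 were also lower than in both others, namely SALL4, LIN28A and LIN28B. The same held for 1 of 5 mesoderm and 1 of 7 endothelium markers, and for 0 of 4 blood, 0 of 3 epidermis and 0 of 3 neuroectoderm markers. In each of the last lists only 1 gene was above 1 CPM, and the test rarely calls genes with few counts. The endoderm regulator GATA6 stood at 7.32, 8.06 and 0.49 CPM, the trophectoderm gene GATA2 at 9.12, 9.77 and 0.69 CPM, and the matrix gene DCN at 9.25, 9.71 and 0.98 CPM. These genes do not stand for their lists, as the fibroblast markers together summed to 677, 635 and 475 CPM. The part of such marker genes in the KLF12, KLF13 and KLF17 differences was not tested. Fewer cells of a type and less RNA per cell cannot be told apart in bulk RNA.

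**Figure D2:**
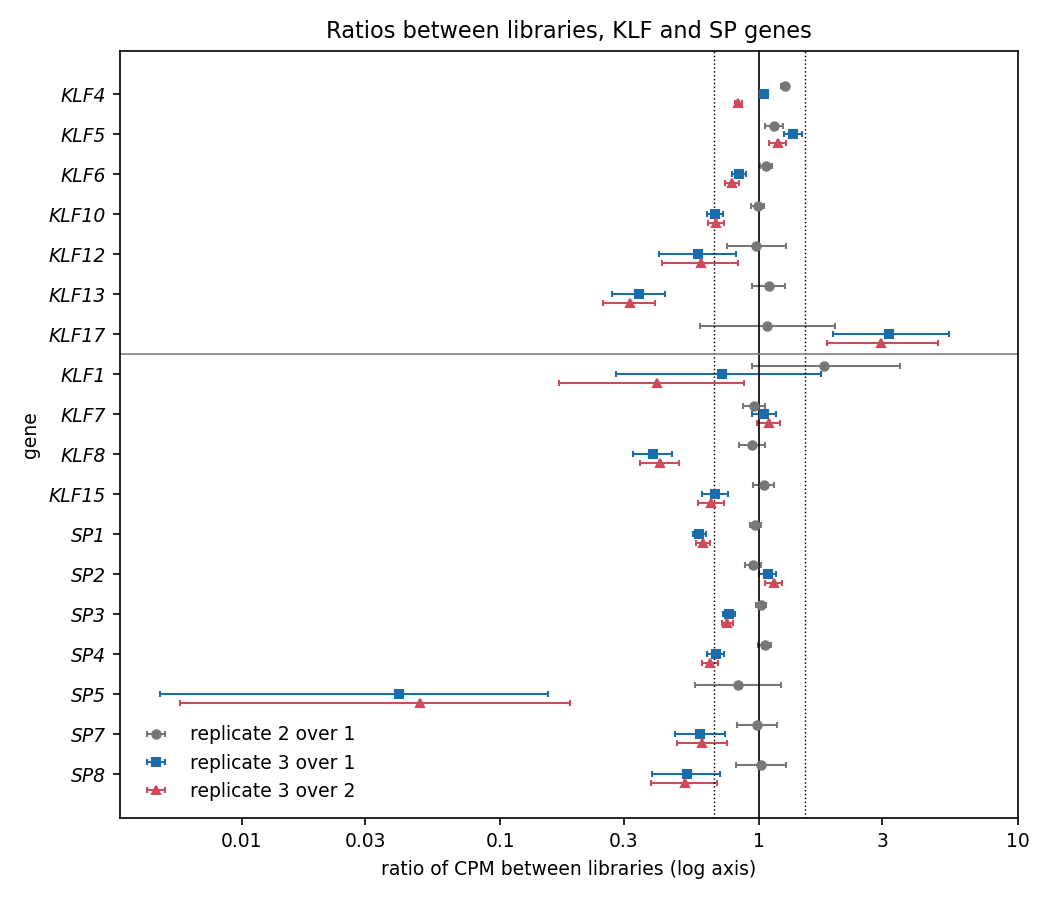
Ratio of CPM between libraries (log axis) for the 7 KLF genes (above the grey line) and 11 other KLF and SP genes (below it), with exact 95% intervals for counting error and dotted lines at 1.5-fold. Ratios of replicate 2 over 1 lie near 1 for most genes, while replicate 3 is low for KLF13, KLF8 and SP5 and high for KLF17.

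The composition of the KLF counts within a library is free of scaling between libraries. It is not corrected for gene length, and such a correction could alter how far a share moves between libraries. Shares were taken of the 14257, 17349 and 10565 counts that the 7 genes held in replicates 1, 2 and 3. KLF4 took 52.1%, 56.5% and 57.2% (exact binomial 95% intervals 51.3 to 53.0, 55.8 to 57.2 and 56.3 to 58.2), so replicate 1 stood lowest and the others overlapped. KLF5 took 8.43%, 8.31% and 11.96%, with replicate 3 clear of the others. Opposite to it, KLF10 took 16.7%, 14.3% and 11.9%, and the intervals of the 3 libraries did not overlap. KLF6 took 19.3%, 17.8% and 17.0%, and KLF12 took 0.81%, 0.68% and 0.49%. For KLF13 the shares were 2.43%, 2.29% and 0.88%, and for KLF17 they were 0.16%, 0.15% and 0.54%. KLF13 and KLF17 moved in replicate 3 beyond the intervals of replicates 1 and 2, in opposite directions.

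**Figure D3:**
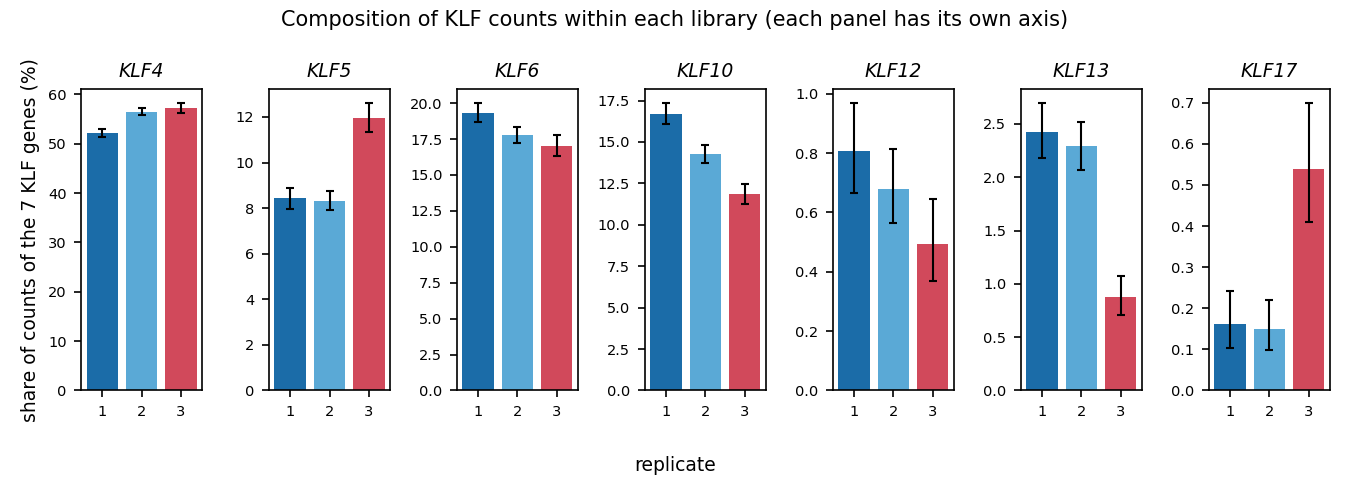
Share of the counts of the 7 KLF genes that each gene held in replicates 1, 2 and 3, in percent, with exact 95% binomial intervals and a separate axis from 0 for each gene. In replicate 3 the bars of KLF4, KLF5 and KLF17 are the highest of their panel, and those of KLF6, KLF10, KLF12 and KLF13 the lowest, though the intervals of replicates 2 and 3 overlap for KLF4, KLF6 and KLF12.

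The family extends to other KLF genes and to the related SP genes, which share the zinc fingers. A row was found for 11 of 17 such genes, and KLF11, KLF14, KLF16, KLF18, SP6 and SP9 had none. Of the 11, 9 were above 1 CPM, 1 was below and 1 was not distinguished. KLF7, known from neurons, was the steadiest of the 11, at 14.9, 14.3 and 15.6 CPM, with a range of 0.12 log2 units. KLF15, a regulator of metabolism, stood at 15.9, 16.6 and 10.8 CPM.

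KLF8, a CtBP-binding repressor like KLF12, had 588, 581 and 178 counts, or 11.2, 10.6 and 4.37 CPM. Replicate 3 was 2.57-fold under replicate 1 (interval 2.17 to 3.06) and 2.42-fold under replicate 2 (2.04 to 2.88, exact binomial adjusted p = 3.01e-31 and 3.99e-27). KLF8 and KLF12, the matched CtBP-binding members, were thus both low in replicate 3, though the KLF12 calls were lost with halved counts. The fall was not particular to them, as KLF13, SP1, SP5, SP7 and SP8 were also lower than in both others. KLF1, the erythroid member, was below 1 CPM at 0.31, 0.55 and 0.22 CPM (edgeR quasi-likelihood, adjusted p = 0.00826).

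Among the SP genes, the general factors SP1 and SP3 stood at 64.5, 62.3 and 37.9 CPM and at 73.7, 74.8 and 56.4 CPM. SP2 was steady at 28.4, 27.0 and 30.7 CPM, and SP4, known from the brain, stood at 41.5, 43.7 and 28.2 CPM. SP5, a target of Wnt signalling, had 63, 55 and 2 counts. Replicate 3 was 24.6-fold under replicate 1 for SP5, with a counting interval of 6.52 to 207, and its level over the libraries was not distinguished from 1 CPM (edgeR quasi-likelihood, adjusted p = 0.538). SP7, which is best known from bone, stood at 4.93, 4.84 and 2.92 CPM, and SP8, a gene of limb and brain development, at 3.04, 3.09 and 1.59 CPM. Lower in replicate 3 than in both others by at least 1.5-fold were 5 of the 11, namely KLF8, SP1, SP5, SP7 and SP8, and 0 were higher, beside 8.32% lower and 4.12% higher among all genes tested and 12.7% lower among those whose mean reached 1 CPM. The median log2 ratio of the 11 was −0.56 against replicate 1 and −0.72 against replicate 2, beside 0.03 and 0.04 over all genes tested and −0.05 in both comparisons over genes whose mean reached 1 CPM.

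Genes around the family were counted in lists drawn up by role. Of the signals known to induce KLF genes, 15 of 19 matched were above 1 CPM, a share near the 78.3% of all tested genes with a symbol. In replicate 3, 10 of 19 were lower than in both other libraries, which held for 8.32% of all genes and for 12.7% of those whose mean reached 1 CPM. The median log2 ratio of the list was −0.70 against replicate 1 and −0.73 against replicate 2. That was further below the medians over all genes than that of any other list of regulators or targets given here. The other KLF and SP genes came close against replicate 2, at −0.72. The trophectoderm and endoderm marker lists fell further, with medians of −2.32 and −2.29 and of −1.31 and −1.25. The fibroblast marker list fell further against replicate 1 alone, at −0.86, and stood at −0.71 against replicate 2. The 10 lower signal genes are named after their values were seen. Those of the LIF pathway, which acts on KLF4, were LIFR at 4.65, 6.13 and 0.91 CPM, IL6ST at 62.8, 60.7 and 35.5 CPM, and STAT3 at 94.7, 98.5 and 52.1 CPM. The kinase genes JAK1, at 41.0, 38.8 and 33.8 CPM, and JAK2, at 18.8, 19.2 and 14.0 CPM, did not pass the call. KLF4 itself was 1.04-fold higher in replicate 3 than in replicate 1 (interval 1.01 to 1.08) and 1.20-fold lower than in replicate 2 (1.16 to 1.24).

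Those of the TGF-beta pathway, which acts on KLF10, were the receptor genes TGFBR1 and TGFBR2 and the signal transducers SMAD2 and SMAD4. TGFBR2 had 74, 70 and 31 counts, and its calls were weaker than those of KLF12 (exact binomial adjusted p = 0.00948 and 0.0415 against replicates 1 and 2). SMAD3, at 7.17, 7.37 and 6.60 CPM, did not pass the call. TGFBR1 stood at 43.5, 41.7 and 19.8 CPM and SMAD4 at 72.2, 76.5 and 44.5 CPM, and KLF10 was lower in the same library, by under 1.5-fold. The remaining 3 were MEF2D, NR3C1, which encodes the glucocorticoid receptor that acts on KLF9, and FOXO3. TGFBR2 and MEF2C were not distinguished from 1 CPM, and THRB and PGR, the latter with 3, 1 and 0 counts, were below it. How these genes bear on the KLF levels was not tested.

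The counts that follow stand beside 78.3% of tested genes with a symbol above 1 CPM. Lower in replicate 3 than in both others were 8.32% of all genes tested and 12.7% of those whose mean reached 1 CPM. Of the cofactors, all 8 matched coactivator partners were above 1 CPM. The acetyltransferase genes EP300, at 207, 217 and 121 CPM, and CREBBP, at 87.4, 94.4 and 56.9 CPM, had the largest ranges of that list and were the 2 of 8 lower in replicate 3 than in both others. The CtBP list had 9 of 10 genes above 1 CPM, with CTBP1 at 71.8, 70.2 and 73.3 CPM and CTBP2 at 307, 309 and 314 CPM, named after their values were seen. RCOR1 and ZEB1 were the 2 of 10 lower in replicate 3, and ZEB1 was not distinguished from 1 CPM. The ZEB1 calls rested on 50, 45 and 17 counts (exact binomial adjusted p = 0.00719 and 0.0434 against replicates 1 and 2). All 7 matched genes of the SIN3 list were above, and SIN3A, at 117, 112 and 73.5 CPM, was the 1 of 7 that was lower in replicate 3. Another SIN3 complex gene, ARID4B, stood at 82.5, 98.2 and 134 CPM. Of enzymes that add or remove ubiquitin on KLF proteins, 9 of 10 were above 1 CPM. FBXO32 was below it with 10, 18 and 4 counts, and BTRC stood at 15.1, 17.8 and 10.3 CPM. The 1 of 10 lower in replicate 3 was HUWE1, named after its values were seen, at 550, 555 and 341 CPM.

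All 11 pluripotency factors that work with KLF proteins were matched and 10 were above 1 CPM, beside 78.3% of tested genes with a symbol. ESRRB, which acts with KLF factors in mouse naive cells, was not distinguished from it, with 48, 47 and 27 counts. TBX3, at 6.44, 7.27 and 1.47 CPM, and SALL4, at 135, 134 and 58.5 CPM, varied most. With TFCP2L1 they made the 3 of 11 lower in replicate 3. Over genes whose mean reached 1 CPM, 12.7% were lower in replicate 3 than in both others. NANOG stood at 316, 327 and 349 CPM. TFCP2L1 and NANOG are named after their values were seen, and TFCP2L1 stood at 3.10, 3.07 and 2.01 CPM. The TFCP2L1 calls had exact binomial adjusted p = 0.00395 and 0.00430 against replicates 1 and 2. Other members of the list were highest in replicate 3, as NANOG was. NR5A2, also named after its values were seen, stood at 13.5, 15.3 and 20.6 CPM and was called higher in replicate 3 than in replicate 1. Beside the higher KLF17 in replicate 3, the list thus did not move one way.

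Of the genes described as KLF targets, 13 of 17 matched were above 1 CPM, beside 78.3% of tested genes with a symbol. CDKN2B and THBD were below, and S1PR1, a target of KLF2 in lymphocytes, was not distinguished from it. S1PR1 stood at 1.64, 1.33 and 0.78 CPM and was among the 2 of 17 lower in replicate 3 than in both others. Over genes whose mean reached 1 CPM that share was 12.7%. The S1PR1 calls had exact binomial adjusted p = 0.000807 and 0.0324 against replicates 1 and 2. CDKN2B had 7, 9 and 0 counts. The median log2 ratio of the target list was −0.07 against replicate 1 and −0.09 against replicate 2.

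Since several KLF genes respond to handling, immediate early genes were counted too, but only 10 of 24 were matched. Of these, 9 were above 1 CPM, beside 78.3% of tested genes with a symbol. FOSL1, with 55, 101 and 19 counts, could not be told from that level, and BTG2 stood at 22.3, 22.2 and 11.3 CPM. Both were lower in replicate 3 than in both others, as was IER5, while NR4A1, at 47.6, 50.7 and 77.1 CPM, was higher. Over all genes tested, 8.32% were lower and 4.12% higher, and of those whose mean reached 1 CPM 12.7% were lower. FOS stood at 61.9, 64.4 and 55.9 CPM. IER5, NR4A1 and FOS are named after their values were seen. The list thus held genes that were high and genes that were low in replicate 3.

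**Figure D4:**
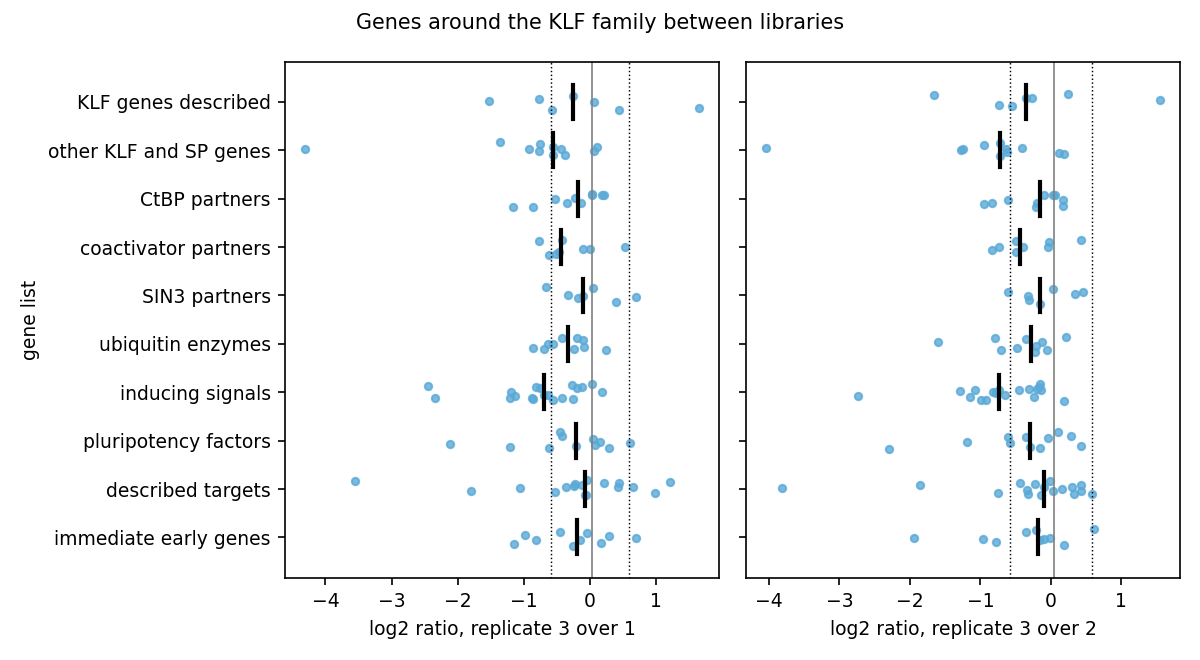
Log2 ratio of replicate 3 over replicate 1 (left) and over replicate 2 (right) for each matched gene with a count, by list, with list medians as black bars, the median over all genes tested as a grey line and dotted lines at 1.5-fold. The list of inducing signals has medians of −0.70 and −0.73, and the target list lies near the grey line.

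Genes with the pattern over libraries most like that of KLF4 were sought among 9824 genes with a symbol and a mean of at least 1 CPM, by the Euclidean distance of centred log2 CPM. The nearest were SLC16A5, TRIM36, CACNB1, ZSCAN18 and CHRD, at distances of 0.0092 to 0.035 log2 units. For KLF13 they were TRIM71, NECTIN1, USP24, INSIG1 and ACKR3, at 0.014 to 0.053. TRIM71, at 252, 273 and 87.6 CPM, was the nearest to KLF13, and its fall in replicate 3 follows from the way it was chosen. The likeness rests on 3 libraries, of which 2 are close.

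In the RefSeq gene table of assembly calJac240_pri, which need not be the build used for counting, KLF5 and KLF12 are neighbours with no coding gene between them, and KLF17 lies next to KLF18. No listed gene overlaps KLF4, KLF5, KLF10 or KLF17. KLF6 is overlapped by 1 protein-coding model, KLF12 by 1 lncRNA gene and KLF13 by 2 lncRNA genes, and with the strand setting unknown their reads cannot be separated. Of the other family genes KLF1 is overlapped by GCDH, and KLF15, SP2, SP3 and SP5 by models without a name.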

How the data were processed

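Total RNA of 3 libraries was sequenced. Reads were processed by the authors with STAR 2.5.3a, featureCounts 1.5.2 and Trim Galore 0.4.0, per the submitters' processing notes. For build, annotation, strand and reads with several positions, the setting is not given in the sources used here, so levels of genes with close copies are uncertain. The deposited values are raw counts per Ensembl gene ID, per the file headers, 1 file per library. Of 30811 IDs, 12660 had a symbol in the name table.

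TMM scaling and fits used edgeR 4.0.16 with limma 3.58.1 in R 4.3.3. Each of 23432 genes with a count was tested against 1 CPM by the F statistic of an intercept-only quasi-likelihood fit, two-sided, Benjamini-Hochberg adjusted, computed from deviances with a Poisson lower bound on p. For each library pair an exact conditional binomial test per gene was used, two-sided, adjusted alike, with at least 1.5-fold required. Log2 CPM used a prior count of 0.5. Both tests were run on simulated data. For the pair test these were Poisson counts, so spread beyond counting error was not covered. DESeq2 1.42.0, other scalings, filters, levels and halved counts were alternatives. Figures used matplotlib 3.10.9 (Python 3.11.15).

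The members and gene lists were chosen with earlier results of these data known. All KLF and SP genes were named, and of other lists those not above 1 CPM (at most 4) and the 2 of largest range. Some genes that this rule names are not reported here.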

Additional observations from a re-analysis of the deposited data

How the results depend on the processing

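The number of KLF genes above 1 CPM was 6 under each of 9 alternatives, which were other scalings, DESeq2, a filter on low counts, halved counts, 0.5 CPM as the level, and leaving out each library in turn. At a level of 5 CPM it was 4: KLF12, with a log2 level of 0.91, was then below the level (edgeR quasi-likelihood, adjusted p = 0.000819), as was KLF17 (0.000842), and KLF13 was not distinguished from it (0.726). The 9 other KLF and SP genes became 7 at that level and stayed at 9 otherwise. Without each replicate in turn, the log2 level of KLF17 ran from −1.13 to −0.11. Fits on 2 libraries had infinite prior degrees of freedom. With no minimum fold, the KLF genes that differed were 2 between replicates 1 and 2 and 7 for each pair with replicate 3, from 0, 3 and 3. The counts over all genes then rose from 250, 3811 and 3935 to 1606, 10760 and 10859. They were 9, 2799 and 2916 with halved counts and 157, 1859 and 1918 at 2-fold, and the first was 172 for genes passing filterByExpr. That filter left 15716 genes, of which 1234 and not 8851 were below 1 CPM. No paired analysis was possible because no second group was sequenced. Length-scaled levels were not run. Among the 7 KLF genes, KLF17, with at most 57 counts, had the largest SE of its level.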
